A study of Mus musculus with 6 samples.

Results

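The genes described here encode the urea cycle, the neighbouring nitrogen-handling enzymes of periportal hepatocytes and the aldehyde dehydrogenase Aldh1b1. They are members of a list of 10 genes, and each was represented by the probe set that the platform annotation assigns to that gene alone. Of the 10 genes, 7 had such a probe set: Nags, Cps1, Otc, Asl, Arg1, Hal and Aldh1b1, each with 1 probe set, out of 19550 genes named in this way. Their probe sets were 10381528 (Nags), 10347117 (Cps1), 10598612 (Otc), 10534120 (Asl), 10368343 (Arg1), 10365769 (Hal) and 10504606 (Aldh1b1). Ass1 lay only on 2 probe sets shared with Gm5424 and is given separately below. Sds and Gls2 were not analysed here. All 7 members passed the filter on dim genes (a mean value at or above 0.185), so 7 of 14662 genes tested were members.

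The liver turns ammonia into urea in a cycle that starts in mitochondria and ends in the cytosol. N-acetylglutamate synthase (Nags) makes the activator of carbamoyl phosphate synthetase (Cps1), which fixes ammonia, and ornithine transcarbamylase (Otc) then makes citrulline. Argininosuccinate synthetase (Ass1), argininosuccinate lyase (Asl) and arginase (Arg1) complete the cycle in the cytosol and release urea. These enzymes are densest in hepatocytes around the portal vein, where histidase (Hal), serine dehydratase (Sds) and liver glutaminase (Gls2) release ammonia from amino acids. Aldh1b1 encodes a mitochondrial aldehyde dehydrogenase.

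The samples were livers of male mice of the C57BL/6NCrSlc background, in 3 groups of 2 arrays, and all mice ate a diet deficient in ascorbic acid (AA, vitamin C). AA-deficient KO (knockout) livers came from mice that lacked SMP30/GNL and received no AA. AA-supplemented KO livers came from mice that lacked SMP30/GNL and drank water with EDTA-stabilised AA at a concentration that maintains normal tissue AA. Wild-type mice drank water without AA. SMP30/GNL, also called regucalcin, is the gluconolactonase of AA synthesis, and its gene is Rgn. Wild-type mice keep this enzyme. Between AA-deficient KO livers and wild type, loss of the gene and loss of AA synthesis therefore cannot be told apart. The labels do not say whether the water of the groups without AA held EDTA, nor how old the mice were, nor whether each array holds 1 animal. The p-values therefore reflect the spread among these arrays alone, and that spread can be technical.

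Values are the deposited ones, read as log10, and a difference of group means is given in the same units with its standard error (SE). Folds and their 95% intervals hold on that reading, and intervals are not widened for the number of genes. A difference was called at an adjusted p under 0.05 in limma, a linear model fitted here to all genes on all 6 arrays.

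Rgn averaged 0.26 ± 0.049 in AA-deficient KO livers, 0.24 ± 0.14 in AA-supplemented KO livers and 2.03 ± 0.052 in wild type (SD, n = 2 each), with adjusted p of 8.98e-05 and 8.11e-05 against wild type in limma. Arrays of the same group correlated at 0.965 to 0.975 over all probe sets, with the lowest value in AA-supplemented KO livers. Arrays of different groups correlated at 0.945 to 0.974, so the arrays did not separate by group on this measure. Of 9 hepatocyte markers, 7 had an own probe set and all 7 passed the filter, with a mean over these markers of 2.12 to 2.13 in AA-deficient KO livers, 2.09 to 2.24 in AA-supplemented KO livers and 2.06 to 2.10 in wild type. AA-supplemented array 2 held the value of 2.24. These markers include Cps1, so their mean is not independent of the members. Kidney and pancreas markers averaged 0.29 to 0.36, 0.28 to 0.36 and 0.31 to 0.38 in the same order of groups. In whole liver, fewer cells of a type and less RNA per cell cannot be told apart.

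Hal carried the difference that passed the test in this set. Histidase catalyses the committed step of histidine breakdown, which splits histidine into urocanate and ammonia. Hal had values of 2.09 and 2.07 in AA-deficient KO livers, 1.96 and 1.93 in AA-supplemented KO livers and 1.83 and 1.91 in wild type. Both AA-deficient arrays lay above all 4 other arrays, and both AA-supplemented arrays lay above both wild-type arrays. The means were 2.08 ± 0.012, 1.95 ± 0.019 and 1.87 ± 0.055 in that order (SD, n = 2 each). Hal rose by 0.21 (SE 0.044) in AA-deficient KO livers against wild type, which is 1.61-fold with an interval of 1.28-fold to 2.04-fold (adjusted p = 0.0432 in limma). Against AA-supplemented KO livers the AA-deficient ones were higher by 0.13 (SE 0.044, 1.35-fold, interval 1.07-fold to 1.71-fold), which did not pass (adjusted p = 0.349). AA-supplemented KO livers exceeded wild type by 0.076 (SE 0.044, 1.19-fold, interval 0.943-fold to 1.51-fold, adjusted p = 0.595).

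The call on Hal rested on a narrow margin. The difference from wild type was 0.17 without wild-type array 1 and 0.25 without wild-type array 2. It was 0.20 without AA-deficient array 1 and 0.22 without AA-deficient array 2. The call was lost in each of these fits, which leave 1 array in a group. Most calls over all genes were lost there too, so these losses say little about Hal in particular. With quantile normalisation the difference was 0.19 (adjusted p = 0.109), and with the replicate number as a block the adjusted p was 0.0974. Of the 10 settings other than leaving out 1 array, 5 lost the call. Over those 10 the adjusted p in limma ran from 0.0114 to 0.109. Hal stayed higher in AA-deficient KO livers than in wild type under each normalisation and on leaving out an array of either group, by 0.17 to 0.25. The other alternatives of the 16 computed cannot move this difference, so its value there was fixed in advance. Over the 3 groups together, the moderated F test gave Hal an adjusted p = 0.104. Mean values over 4 of 7 marker lists also did not overlap between AA-deficient KO livers and wild type. Each of these 4 was higher in the KO livers. Of single genes 54.5% did not overlap there, a share that was not computed for means over lists. The means of the cholangiocyte, lymphocyte and neutrophil, and kidney and pancreas lists overlapped, with median differences of -0.048, -0.027 and -0.060. The hepatocyte mean, which includes Cps1, is given above, with 5 of 7 markers positive and 0 called in limma (1 with an unadjusted p under 0.05). The mean of 6 sinusoidal endothelial markers was 1.08 to 1.12 in AA-deficient KO livers, 1.06 to 1.07 in AA-supplemented KO livers and 1.04 to 1.06 in wild type, with 4 of 6 positive and 1 called. For 6 stellate cell markers it was 0.789 to 0.825, 0.702 to 0.799 and 0.754 to 0.780 in the same order of groups, with 3 of 6 positive and 0 called in limma (2 with an unadjusted p under 0.05). For 7 Kupffer cell and macrophage markers, a cell type that can also express Arg1, it was 0.943 to 1.025, 0.909 to 1.004 and 0.915 to 0.935, with 7 of 7 positive and 0 called in limma (0 with an unadjusted p under 0.05). Their part in the result was not tested.

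**Figure D1:**
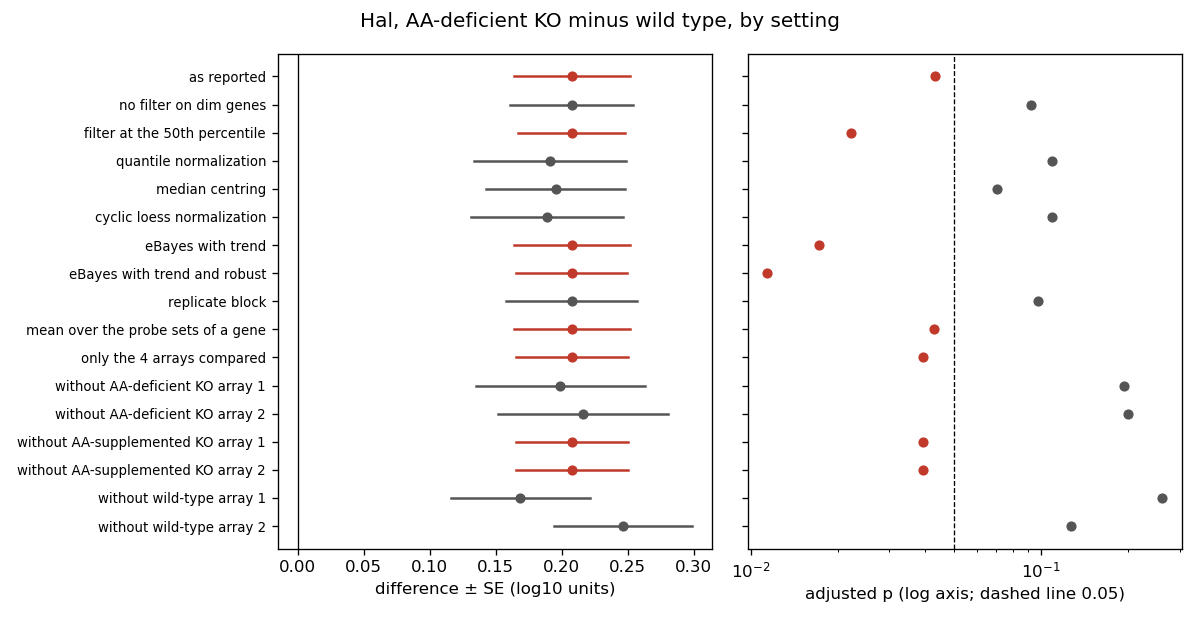
Hal in AA-deficient KO livers minus wild type under each setting. The left panel gives the difference in log10 units with its SE as a bar, the right panel the adjusted p on a log axis with a dashed line at 0.05, and red marks settings with an adjusted p under 0.05. The difference runs from 0.17 to 0.25, and can move only with the normalisation or on leaving out an array of either group compared. The adjusted p in limma is 0.109 with quantile normalisation.

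The sequence before the Hal start site is shown because Hal was the member called. It comes from the RefSeq promoter table (GRCm38.p6), which matched 4 of the 7 members (Hal, Nags, Otc and Aldh1b1), and covers the 250 bases upstream of the annotated start, chr10:93488518-93488767 on the plus strand, read 5′ to 3′. Capitals mark the matches to the 4 motifs searched on both strands, which were the TATA box (TATAAA), the CCAAT box (CCAAT), the C/EBP core (TTGCGCAA) and the cAMP response element (TGACGTCA).
Hal: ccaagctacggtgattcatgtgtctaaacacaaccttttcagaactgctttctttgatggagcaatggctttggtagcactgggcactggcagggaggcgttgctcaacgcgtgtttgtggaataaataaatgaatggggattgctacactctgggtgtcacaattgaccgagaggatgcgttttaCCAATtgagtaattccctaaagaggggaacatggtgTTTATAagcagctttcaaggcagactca

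The Hal window held a CCAAT box that began 64 bases before the start and, 28 bases before it, the TATA box letters on the opposite strand (TTTATA). These matches do not overlap. CCAAT occurred in 33.8% and TATAAA in 12.4% of the 32851 promoter windows of the same length. The C/EBP core occurred in 0.164% of them and the cAMP response element in 1.55%, and neither was in the Hal window. The windows of Nags, Otc and Aldh1b1 held 0 matches to the 4 motifs. The Otc window (chrX:10252055-10252304) ran past the annotated start of the gene at 10252230. It therefore does not cover 250 bases upstream of that start. All matches are of letters, and no measurement of binding was made in this series.

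The mitochondrial enzymes of the cycle did not pass in any comparison. Nags had values of 1.14 and 1.22 in AA-deficient KO livers, 1.22 and 1.20 in AA-supplemented KO livers and 1.28 and 1.19 in wild type, so the groups overlapped throughout. Its difference from wild type was -0.057 (SE 0.048) in AA-deficient and -0.025 (SE 0.048) in AA-supplemented KO livers. For Cps1 the values were 2.24 and 2.19 in AA-deficient KO livers, 2.17 and 2.32 in AA-supplemented KO livers and 2.17 and 2.13 in wild type. Both AA-deficient arrays lay above wild type, while 1 AA-supplemented array was the highest of all and the other overlapped wild type.

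Cps1 in AA-deficient KO livers exceeded wild type by 0.068 (SE 0.056, adjusted p = 0.561). In AA-supplemented KO livers the difference from wild type was 0.092 (SE 0.056, adjusted p = 0.609), 0.018 without the second AA-supplemented array and 0.17 without the first. Otc had values of 1.82 and 1.81 in AA-deficient KO livers, 1.79 and 1.83 in AA-supplemented KO livers and 1.77 and 1.74 in wild type. All 4 knockout arrays were thus above both wild-type arrays. The differences of Otc from wild type were 0.062 (SE 0.040, interval 0.930-fold to 1.43-fold) in AA-deficient and 0.058 (SE 0.040, interval 0.921-fold to 1.42-fold) in AA-supplemented KO livers, with adjusted p of 0.448 and 0.672. Between the knockouts Otc differed by 0.0042 (SE 0.040, interval 0.814-fold to 1.25-fold).

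The cytosolic enzymes also did not pass in any comparison. Asl had values of 1.82 and 1.77 in AA-deficient KO livers, 1.79 and 1.82 in AA-supplemented KO livers and 1.84 and 1.79 in wild type, with overlap in every comparison. Its means had a range of 0.023 over the groups, below the pooled replicate SD of 0.028. Arg1 had values of 1.98 and 1.96 in AA-deficient KO livers, 1.90 and 1.94 in AA-supplemented KO livers and 1.98 and 1.93 in wild type. The AA-deficient arrays were above both AA-supplemented arrays, by 0.050 on average (SE 0.042, interval 0.897-fold to 1.40-fold, adjusted p = 0.803), and wild type overlapped both knockout groups.

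Ass1 was left out of the counts because signal of its probe sets cannot be told apart from that of Gm5424. On the brighter of the shared probe sets the values averaged 2.36 ± 0.039 in AA-deficient KO livers, 2.36 ± 0.092 in AA-supplemented KO livers and 2.32 ± 0.052 in wild type. On the other they averaged 1.96 ± 0.019, 1.94 ± 0.033 and 1.90 ± 0.021 in the same order (SD, n = 2 each). Differences from wild type were 0.040 and 0.056 in AA-deficient KO livers and 0.039 and 0.038 in AA-supplemented KO livers, with no test.

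Aldh1b1 had values of 0.70 and 0.68 in AA-deficient KO livers, 0.74 and 0.62 in AA-supplemented KO livers and 0.53 and 0.67 in wild type. The AA-deficient arrays lay narrowly above both wild-type arrays, and the AA-supplemented arrays overlapped both other groups. Its difference from wild type was 0.095 (SE 0.060, adjusted p = 0.431) in AA-deficient and 0.084 (SE 0.060, adjusted p = 0.678) in AA-supplemented KO livers.

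**Figure D2:**
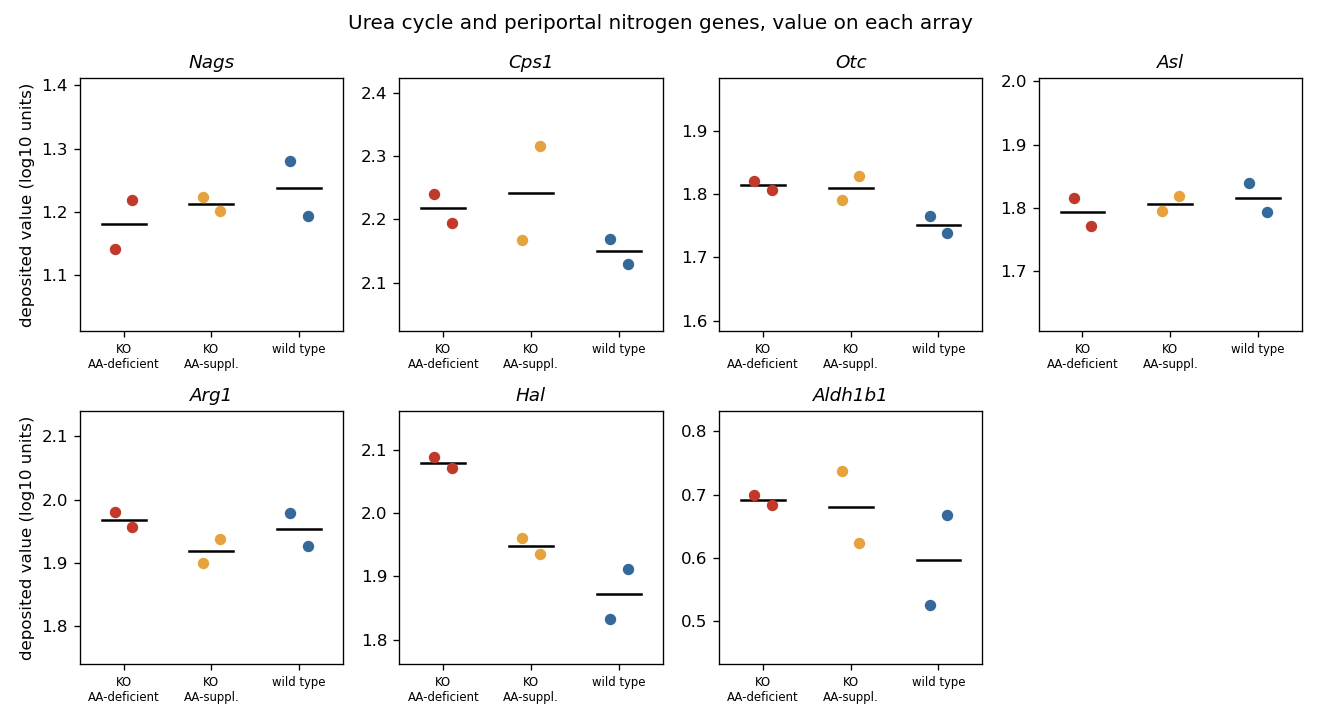
Value of each member on each array in log10 units, with the 2 arrays of a group as points and the group mean as a bar, for AA-deficient KO livers, AA-supplemented KO livers and wild type from left to right. Each vertical axis spans the same distance around the gene's own values. Hal is at 2.09 and 2.07 in AA-deficient KO livers against 1.83 and 1.91 in wild type, and Asl overlaps in every comparison.

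Between AA-deficient and AA-supplemented KO livers, which share the genotype and differ in AA supply, 0 of 7 members were higher and 0 lower past the threshold in limma, and 1 (Hal) had an unadjusted p under 0.05. Over all genes tested, 0.0409% were called higher and 0.164% lower. With quantile normalisation the split of calls over all genes was 1 higher and 13 lower. The groups did not overlap for 2 members, Arg1 and Hal, against 37.3% of all genes tested. The members had a median difference of 0.0042, with 4 of 7 positive, beside a median of 3.1e-05 over all genes, and without AA-supplemented array 1 the members' median was -0.014.

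Between AA-deficient KO livers and wild type, 1 of 7 members (Hal) was called higher and 0 lower, against 3.08% and 1.55% of all genes. The groups did not overlap for 4 members, Hal, Cps1, Otc and Aldh1b1, each higher in the knockouts, against 54.5% of all genes. The members' median difference was 0.062 with 5 of 7 positive, beside a median of -0.0034 over all genes, and the members' median was 0.041 without wild-type array 1. Between AA-supplemented KO livers and wild type, 0 of 7 were called higher and 0 lower in limma, and 0 had an unadjusted p under 0.05. Over all genes 0% were called higher (with 1557 of 14662 at an unadjusted p under 0.05 in either direction) and 0.00682% lower, which was Rgn. With median centring the split was 6 higher and 2 lower. The groups did not overlap for 2 members, Otc and Hal, against 38.6% of all genes. The median was 0.058 with 4 of 7 positive, beside -0.0017 over all genes, and it was 0.018 without either AA-supplemented array 2 or wild-type array 1 and 0.027 without AA-supplemented array 1. The comparisons share arrays, so their values for a gene are not independent of each other. By the F test over the 3 groups 0 of 7 members passed in limma, against 1.36% of all genes, and 1 passed (Hal) when eBayes was run with a trend.

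The intervals reflect the spread among these arrays alone, which may not be separate animals, and their folds hold on the log10 reading. For the 6 members other than Hal, all 18 intervals over the 3 comparisons lay between 0.678-fold and 1.71-fold, so a 2-fold difference lay outside each of them. Their differences ran from -0.057 to 0.095, and their adjusted p from 0.431 to 0.991. Differences inside these intervals cannot be told from 0 with these arrays.

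**Figure D3:**
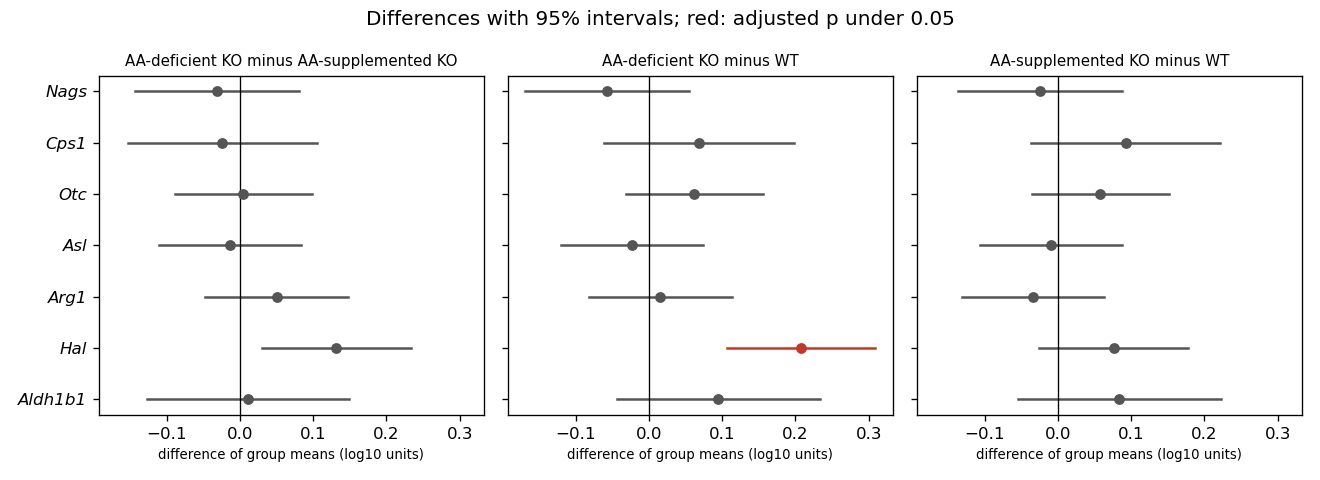
Difference of group means of each member in log10 units, with its 95% interval as a bar, for AA-deficient minus AA-supplemented KO livers, AA-deficient KO livers minus wild type and AA-supplemented KO livers minus wild type. Red marks an adjusted p under 0.05, which holds for Hal in the middle panel at 0.21, and the intervals of the other 6 members cross 0 in every panel.

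Genes around the members were described through 8 lists with 93 genes, of which 85 were tested. In AA-deficient KO livers against wild type 6 of them rose and 2 fell (22 with an unadjusted p under 0.05), with a median difference of 0.046. These are 7.06% and 2.35% of the 85 genes, beside 3.08% and 1.55% of all genes, and 25.9% at an unadjusted p under 0.05, beside 20.4% of all genes. Leaving out either wild-type array left Rgn as the single gene past the threshold among all genes tested there. Those 8 calls were also lost without AA-deficient array 2 and, but for Apoa4, without AA-deficient array 1. Without the filter the calls but those of Psph and Lgr5 were lost (Slc7a2, Amdhd1, Slc38a2, Foxo1, Etnppl and Apoa4). With the replicate number as a block those but Psph and Etnppl were lost. Between the knockouts 0 passed in limma (13 unadjusted, median 0.026), and in AA-supplemented KO livers against wild type 0 passed (10 unadjusted, median 0.034).

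In the list of histidine breakdown, 1 of 4 tested genes rose in AA-deficient KO livers against wild type and 0 fell. Amdhd1 encodes imidazolonepropionase, which acts after histidase and urocanase. It had values of 1.67 and 1.63 in AA-deficient KO livers, 1.53 and 1.45 in AA-supplemented KO livers and 1.42 and 1.47 in wild type. Both AA-deficient arrays were above all others, and the other groups overlapped. Amdhd1 rose by 0.20 (SE 0.045, 1.60-fold, interval 1.26-fold to 2.04-fold, adjusted p = 0.0476) against wild type. Its difference from AA-supplemented KO livers was 0.16 (SE 0.045, adjusted p = 0.275). Under quantile, loess and median scaling, without the filter and with the replicate block the call was lost, with an adjusted p of at most 0.104. Leaving out an array gave an adjusted p of up to 0.275.

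The remaining enzymes of this route are given because they complete the pathway, a choice made after their values were seen. Uroc1, urocanase, had values of 1.55 and 1.55 in AA-deficient KO livers, 1.54 and 1.47 in AA-supplemented KO livers and 1.39 and 1.43 in wild type. The 3 groups did not overlap, and the difference of AA-deficient KO livers from wild type was 0.14 (SE 0.043, adjusted p = 0.119). Ftcd, formimidoyltransferase cyclodeaminase of the last step, had values of 1.68 and 1.67, 1.61 and 1.63, and 1.60 and 1.60 in the same order of groups. Its groups did not overlap either, with a difference of 0.075 (SE 0.039, adjusted p = 0.333). Over all genes tested, 37.3% did not overlap between the knockouts. The share was 38.6% for AA-supplemented and 54.5% for AA-deficient KO livers against wild type. Hdc turns histidine into histamine and is not part of the breakdown route. It differed by -0.026 (SE 0.047, adjusted p = 0.816) in AA-deficient KO livers against wild type. The 3 comparisons of this list had medians of 0.048 between the knockouts, 0.11 for AA-deficient KO livers against wild type and 0.034 for AA-supplemented KO livers against wild type.

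**Figure D4:**
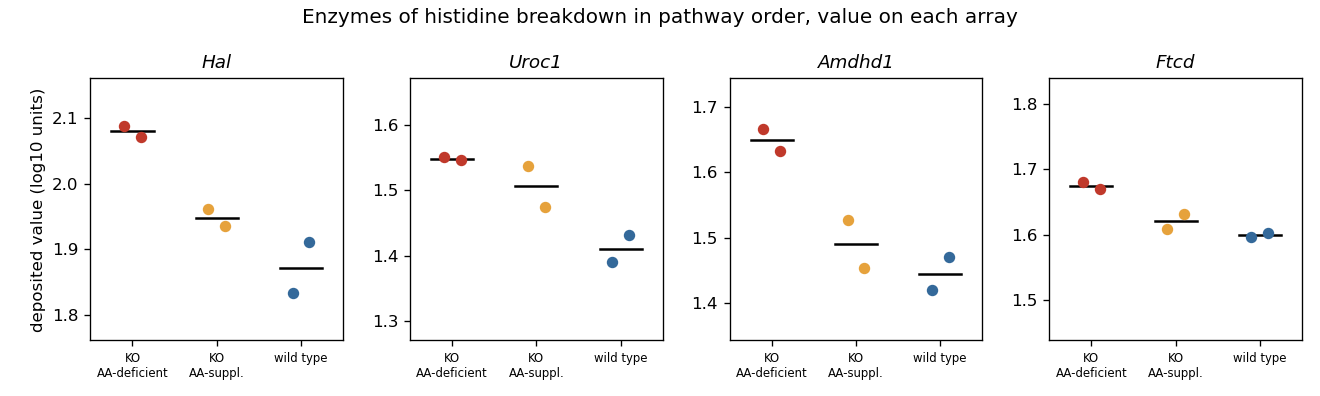
Value of Hal, Uroc1, Amdhd1 and Ftcd on each array in log10 units, in the order of their steps, with arrays as points and group means as bars, for AA-deficient KO livers, AA-supplemented KO livers and wild type from left to right. The AA-deficient arrays are the highest of each gene, for Amdhd1 at 1.67 and 1.63 against 1.42 and 1.47 in wild type.

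Among 11 genes that supply or drain the urea cycle (carriers, the mitochondrial carbonic anhydrase, arginase 2 and others), 1 rose in AA-deficient KO livers against wild type. Slc7a2, the cationic amino acid transporter that takes up arginine, had values of 1.86 and 1.87 in AA-deficient KO livers, 1.66 and 1.77 in AA-supplemented KO livers and 1.60 and 1.53 in wild type. The groups did not overlap, and the rise against wild type was 0.30 (SE 0.051, 1.99-fold, adjusted p = 0.0241). All 11 genes had a positive difference there, with a median of 0.066, while 10 of them did not pass. That count includes Slc25a12 at 3.8e-04 (SE 0.046) and Slc14a1 at 0.0022 (SE 0.041), which showed almost no difference. Over all genes 7113 of 14662 were positive. The medians were 0.053 between the knockouts and 0.019 for AA-supplemented KO livers against wild type.

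Of 14 tested genes of glutamate, glutamine and transamination, 1 rose in AA-deficient KO livers. Slc38a2, the neutral amino acid transporter SNAT2, had values of 1.62 and 1.63 in AA-deficient KO livers, 1.54 and 1.64 in AA-supplemented KO livers and 1.41 and 1.37 in wild type. Both knockout groups were above wild type, by 0.24 in AA-deficient KO livers (SE 0.047, adjusted p = 0.0366) and by 0.20 in AA-supplemented KO livers (SE 0.047, adjusted p = 0.225). The medians of this list were -0.0071 between the knockouts, 0.052 for AA-deficient KO livers against wild type and 0.053 for AA-supplemented KO livers against wild type.

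Among 12 tested genes of serine, threonine and glycine metabolism, 1 fell. Psph, phosphoserine phosphatase of serine synthesis, had values of 0.32 and 0.27 in AA-deficient KO livers, 0.32 and 0.27 in AA-supplemented KO livers and 0.59 and 0.58 in wild type. It fell by 0.29 (SE 0.044, adjusted p = 0.0174) in AA-deficient KO livers against wild type. In AA-supplemented KO livers the difference was -0.29 (SE 0.044, adjusted p = 0.135), and between the knockouts it was -3.1e-04. The list medians were 0.046, 0.0026 and -0.023 in the order between knockouts, AA-deficient KO livers against wild type and AA-supplemented KO livers against wild type.

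Proline catabolism and aldehyde dehydrogenases had 0 of 10 tested genes past the threshold in each comparison in limma, although 6 had an unadjusted p under 0.05 in AA-deficient KO livers against wild type. Aldh4a1, which finishes proline breakdown to glutamate, differed there by 0.16 (SE 0.043, adjusted p = 0.0716), and Aldh5a1, succinate semialdehyde dehydrogenase, by 0.17 (SE 0.049, adjusted p = 0.0967). With a trend in eBayes 4 of the 10 passed. The list medians were 0.055, 0.12 and 0.063 in the same order of comparisons. Of 12 tested regulators, Foxo1, a transcription factor held in check by insulin, rose by 0.19 (SE 0.042, adjusted p = 0.0458) in AA-deficient KO livers against wild type. Its call was also lost with median centring, and its adjusted p reached 0.101 over the settings that kept every array. The medians of this list were 0.0066, 0.033 and 0.038.

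Other zonated genes gave calls in both directions. Of 12 tested periportal genes 1 rose and 1 fell in AA-deficient KO livers against wild type. Etnppl, ethanolamine-phosphate phospho-lyase, had values of 1.56 and 1.51 in AA-deficient KO livers, 1.36 and 1.08 in AA-supplemented KO livers and 1.02 and 1.07 in wild type. It rose by 0.49 (SE 0.084, 3.11-fold, adjusted p = 0.0241) against wild type. Apoa4, an apolipoprotein, had values of 1.37 and 1.26 in AA-deficient KO livers, 1.56 and 1.70 in AA-supplemented KO livers and 1.86 and 1.69 in wild type, and fell by 0.46 (SE 0.075, adjusted p = 0.0212) in AA-deficient KO livers.

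Among 15 pericentral genes 1 rose. Lgr5, a receptor of R-spondins in Wnt signalling, had values of 0.66 and 0.64 in AA-deficient KO livers, 0.49 and 0.60 in AA-supplemented KO livers and 0.36 and 0.27 in wild type, a rise of 0.34 (SE 0.052, adjusted p = 0.0187) for AA-deficient KO livers against wild type. The median differences of AA-deficient KO livers from wild type were 0.021 for periportal and 0.037 for pericentral genes, and in AA-supplemented KO livers they were 0.057 and 0.042. Between the knockouts they were -0.023 and 0.0031.

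Markers of other liver cells gave 1 call. Stab2, of sinusoidal endothelium, rose by 0.24 (SE 0.045, adjusted p = 0.0320) in AA-deficient KO livers against wild type. That call was lost without either wild-type array, without either AA-deficient array, without the filter and with the replicate block. In limma 0 markers passed in any comparison among those of Kupffer cells and macrophages (0 to 1 with an unadjusted p under 0.05 in each comparison), stellate cells (1 to 2), hepatocytes (0 to 1), and kidney and pancreas (0 to 1). For cholangiocytes, and for lymphocytes and neutrophils, 0 passed in limma and 0 had an unadjusted p under 0.05.

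The genes whose profile was most like that of Hal over the 6 arrays were Mn1 (Pearson r of 0.999), Neb (0.996), Phka2 (0.995), Zkscan1 (0.994) and Sgk2 (0.994). Phka2 encodes a regulatory subunit of phosphorylase kinase in liver, Neb the muscle protein nebulin and Sgk2 a kinase of the serum- and glucocorticoid-regulated family. With 6 arrays in 3 groups such values are common: of 8429 genes with enough spread to be compared, 511 had an r over 0.9 with Hal. As these genes were chosen for a profile like that of Hal, their differences are a description. In AA-deficient KO livers they exceeded wild type by 0.57 for Neb, 0.25 for Sgk2, 0.21 for Phka2, 0.19 for Mn1 and 0.13 for Zkscan1.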

How the data were processed

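Total liver RNA was prepared for arrays using the GeneChip WT Terminal Labeling kit, per the labels' protocols. The authors' deposited table holds values taken here as log10, since their range of -0.58 to 2.51 spans 8.48-fold if read as log2 and 1213-fold if read as log10. Software, background correction, normalisation and log base: not given in the sources used here. Array medians were 0.350 to 0.392. Of 34760 probe sets, 30765 held values. Probe sets with 1 symbol were kept, the brightest per gene, and 14662 of 19550 genes were tested after dropping those whose mean fell under the 25th percentile.

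Differences were fitted across all genes with limma 3.58.1 in R 4.3.3 (lmFit and eBayes), all 6 arrays together and no block, with 3 residual and 4.89 prior degrees of freedom. Tests were two-sided, with Benjamini-Hochberg adjustment over all genes. The fit was tested on simulated data. Named genes were the members, Rgn, list genes passing in any comparison (otherwise up to 2 of smallest F-test p, some not printed), and the 5 genes most like the member of smallest F-test p. Members and lists were chosen with earlier results of these data known. The number of arrays limits the precision. Alternatives changed the filter, normalisation, eBayes options, probe set rule, block and arrays.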

Additional observations from a re-analysis of the deposited data

How the results depend on the processing

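Hal was the member called in AA-deficient KO livers against wild type. The count of members called there was 0 without a filter, with quantile normalisation, median centring, cyclic loess and the replicate block, and 0 to 1 on leaving out an array. By the F test 1 member passed with a trend and 1 with a trend and robust fit. Of 336 member differences under the alternatives, 13 changed sign, each from a difference of at most 0.032, and 0 of those were called. Many of the 336 could not change sign. Changes of the filter, eBayes options, probe set rule or block, or leaving out an array of a group not compared, leave a member's difference as it was. The members' median between the knockouts ran from -0.014 to 0.023 on leaving out an array. Against wild type the median of AA-deficient KO livers was 0.043 with quantile normalisation, 0.050 with median centring and 0.044 with cyclic loess, and 0.041 to 0.069 on leaving out an array. For AA-supplemented KO livers it was 0.041, 0.044 and 0.041 in the same order, and 0.018 to 0.058 on leaving out an array. The cause of these shifts was not tested.

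Over all genes, the calls were 30 between the knockouts, 679 for AA-deficient and 1 for AA-supplemented KO livers against wild type, and 200 by the F test. In that order they were 0, 173, 1 and 30 without a filter, 51, 1057, 1 and 523 at the 50th percentile, 154, 1271, 94 and 861 with a trend, and 177, 1312, 116 and 894 with a trend and robust fit. They were 14, 743, 1 and 206 with quantile normalisation, 57, 533, 8 and 282 with median centring, and 13, 822, 1 and 256 with cyclic loess. With the 4 arrays compared they were 0, 1031 and 1. The counts of 0 stood beside 1230 to 1550 genes at an unadjusted p under 0.05 in limma. Leaving out an array gave 0 to 46, 1 to 1031, 1 to 7 and 1 to 386. With the replicate number as a block the calls were 4, 163, 3 and 57. The labels name no pairing of same-numbered arrays. Differences of replicate 1 from replicate 2 nevertheless correlated across genes between groups. The correlation was -0.369 between AA-deficient and AA-supplemented KO livers, 0.358 between AA-deficient KO livers and wild type, and -0.284 between AA-supplemented KO livers and wild type. The source of these correlations was not tested.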
